A study of Homo sapiens with 30 samples.

Results

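The genes described are 45 DNA repair and Fanconi anemia pathway genes, taken as the rows of the deposited count table whose gene name is on a fixed list. They are 45 of 58735 genes in the table, and all 45 were among the 17499 genes with enough counts to be tested. Their RNA was measured by sequencing of poly-A libraries from PC3 cells, an established human prostate carcinoma line, after 48 h of treatment. The series asks how cells respond to inhibition of the PIM kinases and to their degradation. The 5 groups were DMSO, SGI-1776 at 1500 nM, SGI-1776 at 3750 nM, SGI-1776-VHL-02 at 1500 nM and SGI-1776-VHL-02 at 3750 nM, with 6 libraries each. SGI-1776 is a small-molecule PIM kinase inhibitor, and SGI-1776-VHL-02 is the series' degrader, named for SGI-1776 and the VHL ubiquitin ligase. DMSO is the solvent in which such compounds are dissolved. Each group holds 3 libraries labelled Rep 1 and 3 labelled Rep 2. The labels do not say which libraries are separate cultures, so the p-values measure the spread between these libraries, which may in part be technical.

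Cells repair double-strand breaks either by end joining, which needs no template, or by homologous recombination, in which a resected end is copied from the sister chromatid after replication. The Fanconi anemia pathway removes interstrand crosslinks. Its core complex places ubiquitin on FANCD2 and FANCI, and the incised site is then finished by homologous recombination with BRCA1, BRCA2 and the recombination mediators. Many genes of homologous recombination and of the Fanconi pathway are transcribed mainly in the S and G2 phases of the cell cycle, in part through E2F transcription factors, so their RNA level in a culture also follows how many cells are cycling.

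Library totals ran from 22520292 to 48968707 counts, and the 45 genes took 0.287 to 0.341% of the counts as group means. Mitochondrially encoded genes took 1.94 to 3.96% of counts in Rep 1 and 0.296 to 1.67% in Rep 2, and Rep 2 held all 4 libraries under 0.5%. All 7 epithelial and carcinoma markers listed for PC3 were present, with a summed level of 2030 to 2640 CPM (counts scaled to library size). All 6 leukocyte markers stayed under 1 CPM in every library. KLK3, a marker of luminal prostate cells that PC3 is known to lack, was also under 1 CPM in every library.

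In DMSO the genes spanned a wide range of levels per transcript length. XRCC6 (Ku70), which with XRCC5 (Ku80) caps broken ends for end joining, stood highest at 132.9 ± 8.53 RPKM (counts scaled to library size and gene length, SD, n = 6). XRCC5 followed at 88.9 ± 6.05 RPKM. PARP1, the sensor of single-strand breaks, stood at 82.6 ± 6.33 RPKM, overlapping XRCC5 within 1 SD. The next gene, PRKDC, which encodes the catalytic subunit of DNA-PK, stood well below these at 23.1 ± 3.34 RPKM. At the low end, BRCA2 stood at 0.954 ± 0.126 RPKM and RAD50 at 0.178 ± 0.0193 RPKM. RAD50 encodes the ATPase of the MRE11-RAD50-NBN complex, whose partner NBN stood at 18.3 ± 1.43 RPKM. The RAD50 level rests on 30 to 113 counts per library. In GENCODE 29, 79.7% of the exonic bases of RAD50 are shared on the same strand with AC116366.3, a gene with 0 to 2 counts per library. RAD54B likewise shares 59.1% of its exonic bases on the same strand with FSBP, which had 0 to 6 counts. The part of shared exons in these levels was not tested.

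**Figure D1:**
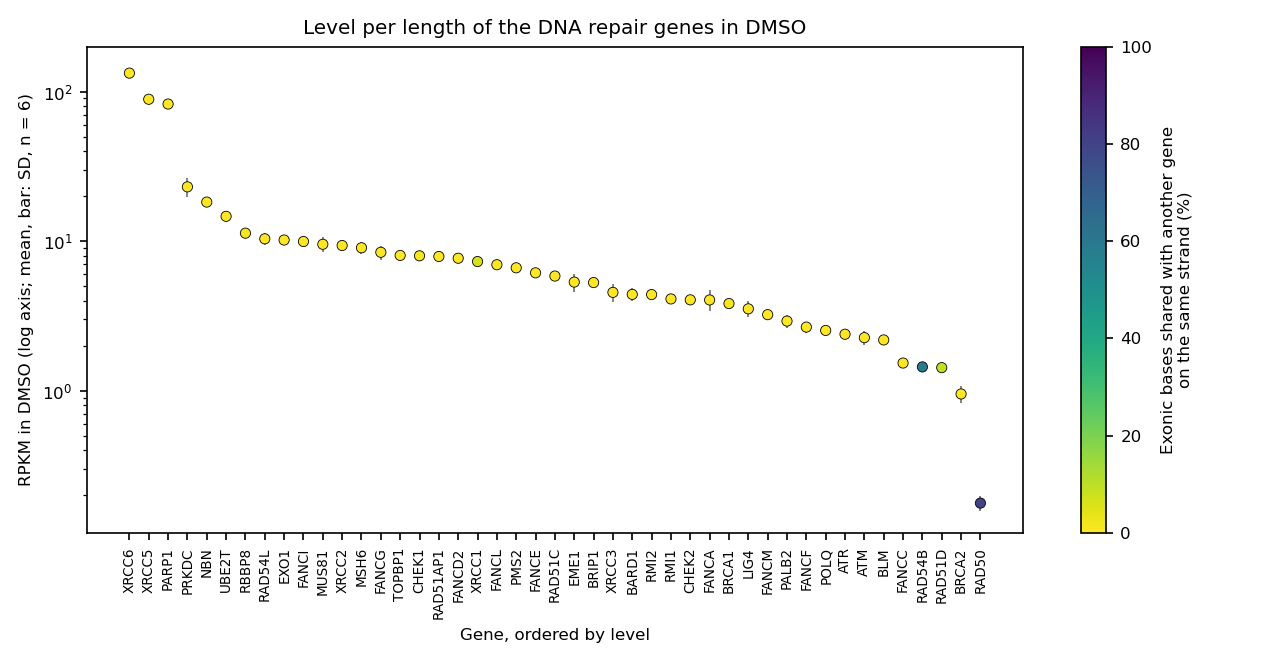
Level of each of the 45 genes in DMSO, in RPKM on a log axis, as the mean of 6 libraries with the SD as a bar, ordered from high to low; the colour gives the percentage of exonic bases shared with another gene on the same strand. XRCC6, XRCC5 and PARP1 stand apart at the top, and RAD50, with 79.7% shared bases, stands lowest.

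In a single test of any difference between the 5 groups, 35 of the 45 genes passed (77.8%), beside 47.4% of all genes tested. Most of them were lower with SGI-1776 at its higher dose. At 3750 nM against DMSO, 29 of the 45 genes fell and 1, ATM, rose, while of all genes tested 18.4% fell and 17.2% rose. The median log2 fold change of the 45 genes was -0.23, beside 0.01 for all genes tested. All calls and adjusted p-values here are from edgeR's quasi-likelihood test with Benjamini-Hochberg adjustment over all genes tested, at a threshold of 0.05. At 1500 nM, 10 of the 45 genes fell and ATM rose, beside 7.65% and 5.28% of all genes tested, and the median log2 fold change was -0.10. In bulk RNA, fewer cells expressing a gene and less RNA per cell cannot be told apart. The falls at 3750 nM were 8.7 to 28.2% of the DMSO level.

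Of the 11 genes of the BRCA complexes and the recombination mediators, 9 fell at 3750 nM SGI-1776, and the median log2 fold change was -0.28. RAD54B, a DNA translocase of homologous recombination, had a lowest, median and highest level of 6.88, 7.62 and 8.44 CPM in DMSO and of 5.29, 5.42 and 5.97 CPM at 3750 nM. Every treated library lay below every DMSO library, and the log2 fold change was -0.48 ± 0.06 (SE), adjusted p = 1.46e-07. At 1500 nM its levels were 6.64, 6.94 and 7.67 CPM, which overlapped DMSO. RAD54L, the other RAD54 translocase, had 29.1, 33.9 and 36.7 CPM in DMSO and 20.5, 24.1 and 27.3 CPM at 3750 nM. The groups did not overlap, and the log2 fold change was -0.47 ± 0.09, adjusted p = 7.99e-05. It was -0.46 within Rep 1 and -0.48 within Rep 2, although every Rep 1 library stood above every Rep 2 library in each of the 5 groups. Of the RAD54L exonic bases, 25.1% overlap LRRC41 on the opposite strand, and no source used here gives the strand setting of the counting.

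XRCC2, a recombination mediator, had a lowest, median and highest level of 40.9, 45.9 and 48.4 CPM in DMSO and of 29.3, 34.3 and 40.7 CPM at 3750 nM SGI-1776. The 2 groups lay next to each other without overlap, with a log2 fold change of -0.41 ± 0.08, adjusted p = 9.12e-05. It was -0.30 within Rep 1 and -0.54 within Rep 2. XRCC3, another mediator, fell by 0.34 on the log2 scale. Its groups overlapped over both Reps together but not within either Rep. Of its exonic bases, 76.7% overlap KLC1 on the opposite strand, a gene with 1627 to 3514 counts. RAD51C and RAD51D, mediators of the same family, fell by 0.25 and 0.13. BRCA1 and its partner BARD1, which together form a ubiquitin ligase, fell by 0.31 and 0.28. RAD51AP1, a cofactor of strand exchange, fell by 0.24. BRCA2, which acts on resected DNA in recombination, and PALB2, which joins BRCA1 to BRCA2, did not pass at 3750 nM, with log2 fold changes of -0.16 ± 0.10 and -0.13 ± 0.08.

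At 1500 nM SGI-1776, 2 genes of this role fell. BARD1 had a lowest, median and highest level of 23.7, 26.6 and 29.8 CPM in DMSO, of 22, 22.9 and 25.8 CPM at 1500 nM and of 20.4, 22.4 and 24.2 CPM at 3750 nM. Both doses overlapped DMSO over both Reps together, but within each Rep all treated libraries at both doses lay below all DMSO libraries. The log2 fold change at 1500 nM was -0.19 ± 0.06, adjusted p = 0.0229, and with Rep as a block the adjusted p was 0.00181. RAD51C was the only 1 of the 45 genes whose 6 libraries at 1500 nM all lay below all 6 DMSO libraries, with 29.1 to 34.2 CPM against 35 to 36.2 CPM. A fall without overlap was seen in 4.21% of all genes tested at that dose.

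In the Fanconi pathway, all 3 genes of the FANCD2-FANCI complex and its partner helicase BRIP1 fell at 3750 nM SGI-1776. FANCI had a lowest, median and highest level of 72.9, 78.1 and 80.3 CPM in DMSO and of 57.4, 61.8 and 63.9 CPM at 3750 nM. Every treated library stood below every DMSO library, at -0.34 ± 0.04 on the log2 scale, adjusted p = 2.05e-08. FANCD2 also did not overlap, with a log2 fold change of -0.34 ± 0.05, and BRIP1 fell by 0.23. Both FANCD2 and FANCI had already fallen at 1500 nM, by 0.16 and 0.14.

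Of the core complex and its E2 enzyme, 4 of 8 genes fell at 3750 nM. UBE2T, the E2 that carries ubiquitin to FANCD2 and FANCI, fell by 0.33 and did not overlap DMSO. FANCA had a lowest, median and highest level of 27.8, 40.9 and 45.4 CPM in DMSO and of 22.6, 28.6 and 37.3 CPM at 3750 nM. The groups overlapped widely, and the log2 fold change was -0.42 ± 0.12, adjusted p = 0.00895, with -0.36 in Rep 1 and -0.49 in Rep 2. ZNF276 overlaps 23.6% of FANCA exonic bases on the opposite strand. FANCG, a scaffold subunit, fell by 0.26. FANCE, the subunit that binds FANCD2, had 15.2, 16.7 and 17.6 CPM in DMSO, 13.3, 14.4 and 16.2 CPM at 1500 nM and 13.7, 14.6 and 15.3 CPM at 3750 nM. Its fall was alike at the 2 doses, -0.19 ± 0.05 (adjusted p = 0.0178) and -0.18 ± 0.05 (adjusted p = 0.0093), and most treated libraries lay below DMSO with some overlap. That overlap was between Reps, and within each Rep all treated libraries lay below DMSO at both doses. FANCC, FANCF, the ligase subunit FANCL and the translocase FANCM did not pass, with log2 fold changes between -0.11 and -0.03.

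**Figure D2:**
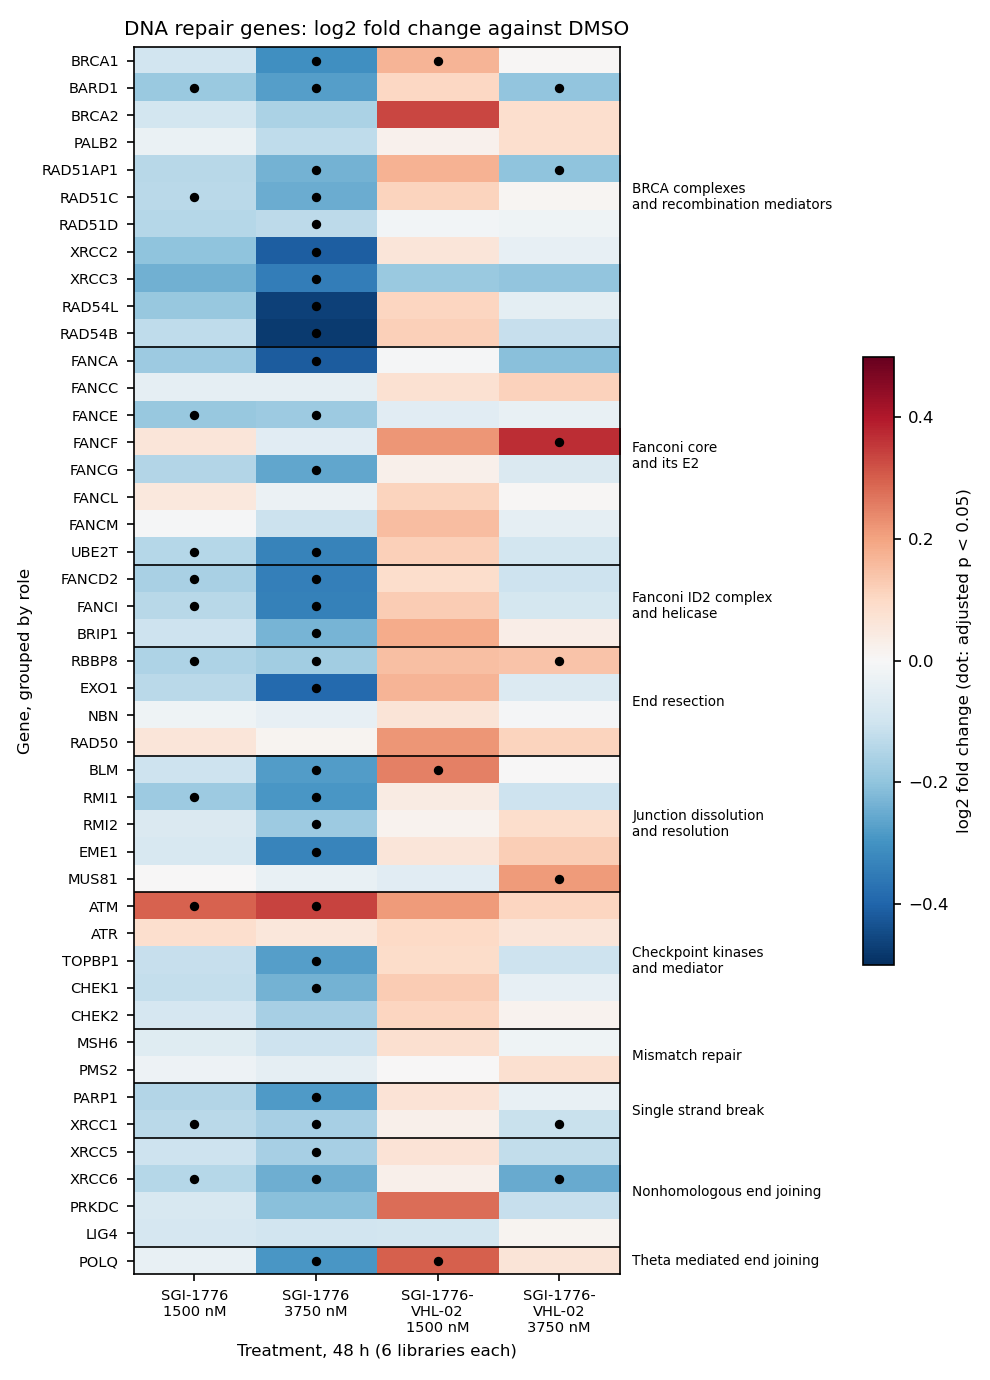
Log2 fold change against DMSO for each of the 45 genes, in rows grouped by role, under each of the 4 treatments; blue is lower, red is higher, and a dot marks adjusted p under 0.05. The SGI-1776 3750 nM column holds 29 dots on lower genes and 1 on ATM, while the SGI-1776-VHL-02 columns hold 3 dots at 1500 nM and 7 at 3750 nM.

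E2F sites were searched in the promoters of the 45 genes, since many of them moved together. RefSeq promoters (GRCh38.p14, 250 bases before to 50 bases after each start) were found for 39 of the 45 genes. RMI2, NBN, PRKDC, RAD54B, XRCC5 and FANCI had no entry. The spellings TTTCCCGC, TTTCGCGC, TTTGCCGC and TTTGGCGC, searched on both strands, occurred in a promoter of 10 of the 39 genes (25.6%), beside 3.99% of all genes in the promoter table. Among the 25 of the 39 that fell at 3750 nM SGI-1776, 7 held a match (28%), and among the other 14, 3 held one (21.4%). The 3 were FANCC, MSH6 and PMS2. The CCAAT box occurred in 53.8% of the 39 genes and 39.7% of all genes. The CHR spellings TTTGAA and TTTAAA occurred in 20.5% and 27.9%. A match is a description of these letters and not a measured binding site.

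The matches of the 7 genes that fell are shown with their flanks so that the letters behind the counts can be read. Spellings among these, other than TTTGGCGC, also occurred in the 3 genes that did not fall. Each match is written on the strand of its gene, 5′ to 3′, with the match in capitals.
XRCC2, chr7:152676103-152676130, minus strand, match from base 22 after the start: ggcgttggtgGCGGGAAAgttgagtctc
FANCD2, chr3:10026425-10026452, plus strand, match from base -2: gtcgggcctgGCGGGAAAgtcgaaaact
EXO1, chr1:241848198-241848225, plus strand, match from base 5: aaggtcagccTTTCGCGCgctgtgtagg
TOPBP1, chr3:133661931-133661958, minus strand, match from base -7: cgcgcggttgGCGCGAAAgtcggttccc
RMI1, chr9:83980743-83980804, plus strand, match from base -32: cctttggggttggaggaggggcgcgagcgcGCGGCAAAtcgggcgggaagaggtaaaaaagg
FANCA, chr16:89816782-89816849, minus strand, match from base -172: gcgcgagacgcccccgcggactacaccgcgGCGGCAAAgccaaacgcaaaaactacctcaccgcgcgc
XRCC6, chr22:41621327-41621344, plus strand, match from base 43: tcgcttccctGCGCCAAA
XRCC2 and FANCD2 hold the same 8 letters, as do RMI1 and FANCA, and TOPBP1 holds the reverse complement of the EXO1 match.

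End resection prepares a break for recombination. EXO1, the long-range nuclease, had a lowest, median and highest level of 40.1, 41.8 and 44.6 CPM in DMSO and of 29.6, 31.8 and 35.1 CPM at 3750 nM SGI-1776. The groups did not overlap, with a log2 fold change of -0.39 ± 0.05, adjusted p = 1.14e-07. RBBP8 (CtIP), which starts resection, fell by 0.18 at 3750 nM and by 0.15 at 1500 nM. NBN and RAD50 did not pass.

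Of the genes that dissolve or cut recombination junctions, 4 of 5 fell at 3750 nM SGI-1776. BLM, the helicase of the dissolvasome, fell by 0.28, and its partners RMI1 and RMI2 fell by 0.29 and 0.18. EME1, a subunit of the MUS81 nuclease, had a lowest, median and highest level of 13.3, 18.2 and 19.8 CPM in DMSO and of 11.6, 13.8 and 17.7 CPM at 3750 nM. The groups overlapped, and EME1 fell by 0.33. MUS81 itself was at -0.04 ± 0.08 and did not pass.

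Among checkpoint genes, TOPBP1, the activator of ATR, and CHEK1, the kinase that ATR activates, fell at 3750 nM SGI-1776 by 0.28 and 0.24. ATM, the kinase that responds to double-strand breaks, moved the other way at both doses. It had a lowest, median and highest level of 49.5, 52 and 63.9 CPM in DMSO, of 61, 65 and 75.1 CPM at 1500 nM and of 55.1, 67.4 and 83.8 CPM at 3750 nM. Most treated libraries were above most DMSO libraries, with overlap at both doses. The log2 fold change was 0.30 ± 0.08 at 1500 nM (adjusted p = 0.0177) and 0.34 ± 0.08 at 3750 nM (adjusted p = 0.00199), and at 3750 nM it was 0.41 in Rep 1 and 0.26 in Rep 2. The highest ATM library at 3750 nM, Rep 1 library 3, had 1.94% mitochondrial counts, the lowest of Rep 1. In the other Rep 1 libraries of that group ATM stood at 66.22 and 63.45 CPM. The same held throughout: in each group and Rep, ATM was highest in the library with the lowest mitochondrial share. For example, it stood at 63.93 CPM at 0.368% in Rep 2 of DMSO. In Rep 2 of SGI-1776 at 3750 nM it stood at 75.47 CPM at 0.477%. The part of the mitochondrial share in the ATM differences was not tested. ATR and CHEK2 did not pass, at 0.06 ± 0.05 and -0.17 ± 0.08. Counts of CHEK2 and PMS2 are uncertain because pseudogenes carry near-identical copies of parts of both.

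In end joining and the repair of single-strand breaks, PARP1 and its scaffold partner XRCC1 fell at 3750 nM SGI-1776 by 0.28 and 0.17, and the Ku genes XRCC6 and XRCC5 by 0.24 and 0.16. POLQ, the polymerase of theta-mediated end joining, fell by 0.29. PRKDC did not pass, at -0.21 ± 0.10, nor did LIG4, the ligase of end joining, at -0.10 ± 0.07. The mismatch repair genes MSH6 and PMS2 did not pass, at -0.10 ± 0.06 and -0.04 ± 0.04.

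At 3750 nM, 16 of the 45 genes had all 6 treated libraries below all 6 DMSO libraries, beside 9.74% of all genes tested, and 41 of the 45 were lower in both Reps, as were 38.7% of the genes tested within both. When the 3 libraries of each Rep were summed, leaving 2 samples per group, 8 genes passed, namely RAD54B, EXO1, FANCD2, FANCI, UBE2T, BRCA1, BLM and ATM, beside 6.9% of all genes, and with Rep as a block on the sums 31 passed (31.4%). At 1500 nM, 20 genes passed with Rep as a block (21.6% of all genes tested), and on the sums 0 of the 45 passed without the block (0%) and 8 with it (10.3%). Without Rep 2, 3 of the 45 passed at 1500 nM, with no filter on low counts 1 passed, and with voom and correlated Reps 0 passed. The share of all genes was not counted in these last settings, so whether the drop is particular to the 45 genes is not known.

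**Figure D3:**
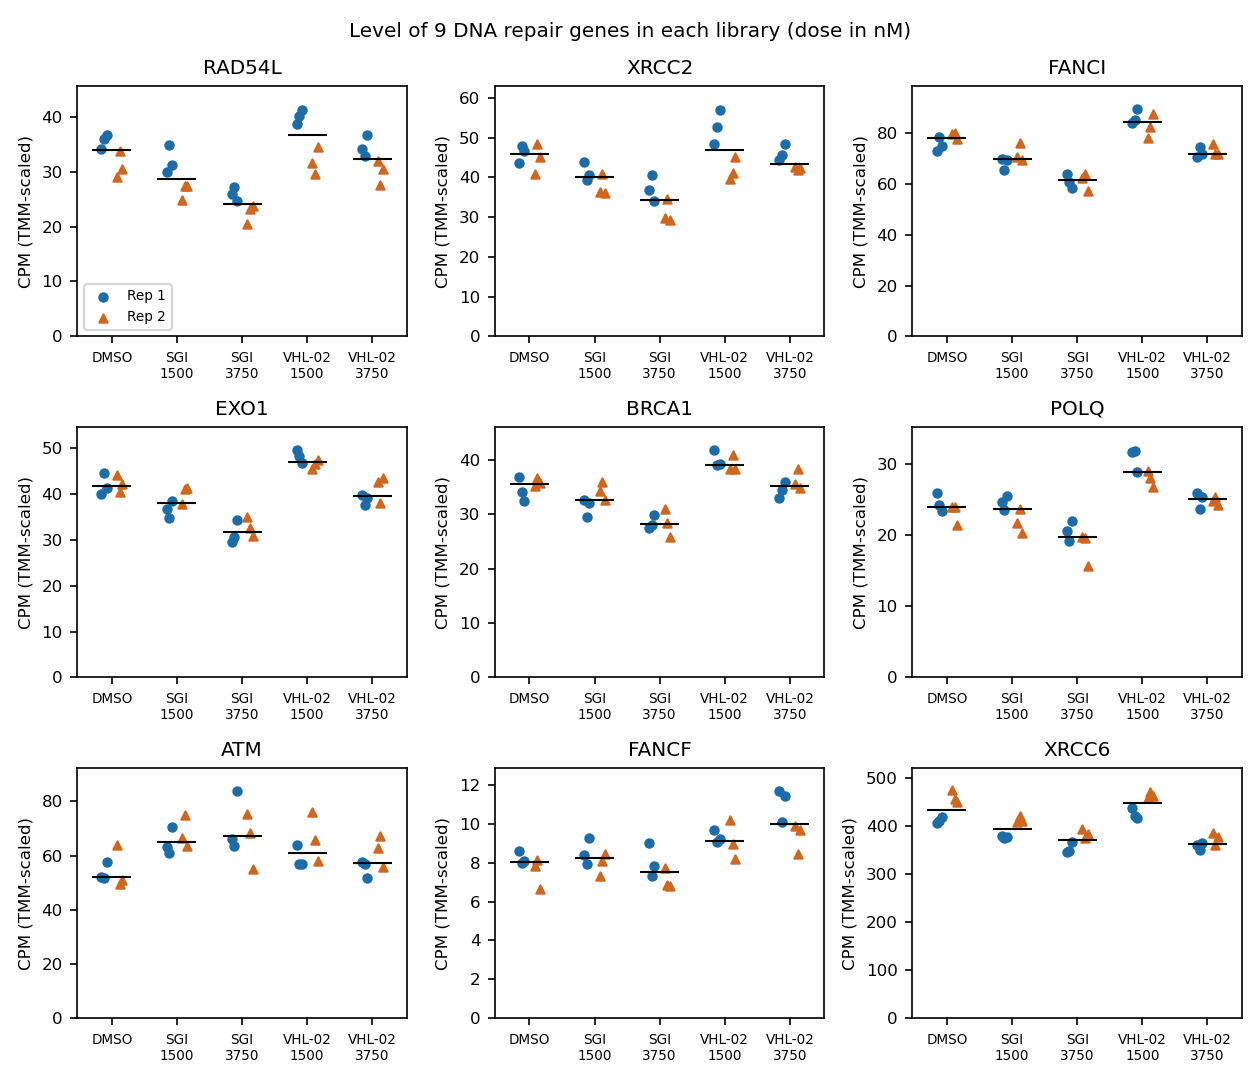
CPM, scaled by TMM, of 9 of the genes in each of the 30 libraries (SGI is SGI-1776, VHL-02 is SGI-1776-VHL-02, doses in nM), with circles for Rep 1, triangles for Rep 2 and a line at the group median. RAD54L, XRCC2, FANCI, EXO1 and BRCA1 are lowest with SGI-1776 at 3750 nM, ATM is higher with SGI-1776 than in DMSO, FANCF is highest with SGI-1776-VHL-02 at 3750 nM, and XRCC6 is low at 3750 nM of both compounds.

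Against DMSO, fewer of the 45 genes passed with SGI-1776-VHL-02 than with SGI-1776 at the same dose. At 1500 nM, 3 rose (6.67%), POLQ, BLM and BRCA1, and the other 42 did not pass, beside 1.07% higher and 0.851% lower of all genes tested. The median log2 fold change of the 45 genes was 0.10, with 39 of 45 positive, beside -0.00 for all genes tested. POLQ had a lowest, median and highest level of 21.4, 24 and 26 CPM in DMSO and of 26.7, 28.9 and 31.8 CPM at 1500 nM. All treated libraries were above all DMSO libraries, with a log2 fold change of 0.30 ± 0.06, adjusted p = 0.00566. BLM had 13.4, 14.6 and 15.4 CPM in DMSO and 16.3, 17.1 and 19 CPM at 1500 nM. It too did not overlap, at 0.25 ± 0.04, adjusted p = 0.00096. BRCA1 rose by 0.17 ± 0.05, adjusted p = 0.0442, from 32.4 to 36.9 CPM in DMSO to 38.3 to 41.9 CPM. With Rep as a block 13 genes passed at this dose, 12 higher and 1 lower (9.42% of all genes tested), and on the summed libraries 0 of the 45 passed without the block (0%) and 7 with it (4.25%). DESeq2 called 7 of the 45, and without Rep 1 the count was 0, with the share of all genes not counted in either setting.

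At 3750 nM SGI-1776-VHL-02, 3 genes rose and 4 fell against DMSO, beside 11.5% higher and 10.3% lower of all genes tested. The median log2 fold change of the 45 genes was -0.02, and 20 were positive and 25 negative. The 4 that fell, 8.89% of the 45, were XRCC6, RAD51AP1, BARD1 and XRCC1. XRCC6 had a lowest, median and highest level of 407, 435 and 476 CPM in DMSO and of 351, 364 and 387 CPM with SGI-1776-VHL-02 at 3750 nM. The groups did not overlap, with a log2 fold change of -0.25 ± 0.04, adjusted p = 5.34e-05. It was -0.20 in Rep 1 and -0.32 in Rep 2. XRCC6 with SGI-1776 at 3750 nM had 346, 372 and 394 CPM, which overlapped these values.

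RAD51AP1 had a lowest, median and highest level of 17.8, 20 and 22.9 CPM in DMSO and of 16.1, 17.4 and 20.2 CPM at 3750 nM SGI-1776-VHL-02. The groups overlapped, and the log2 fold change was -0.20 ± 0.06, adjusted p = 0.0146, with -0.14 in Rep 1 and -0.28 in Rep 2. BARD1 had 21.4, 23.2 and 25.5 CPM at this dose, in part below the DMSO range given above, with a log2 fold change of -0.20 ± 0.06, adjusted p = 0.00936, and -0.13 in Rep 1 and -0.28 in Rep 2. All its libraries at this dose lay below the DMSO libraries of the same Rep. XRCC1 had 24, 25.3 and 26.6 CPM in DMSO and 22.7, 23 and 24.7 CPM at this dose. The groups overlapped slightly, and the fall was -0.11 ± 0.04, adjusted p = 0.0468.

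The 3 genes that rose at 3750 nM SGI-1776-VHL-02 have separate roles. FANCF, an adaptor subunit of the Fanconi core complex, had a lowest, median and highest level of 6.62, 8.04 and 8.6 CPM in DMSO and of 8.44, 10 and 11.7 CPM. The groups overlapped only at the edge, with a log2 fold change of 0.37 ± 0.08, adjusted p = 0.00076, and of 0.43 in Rep 1 and 0.29 in Rep 2. MUS81, the structure-specific nuclease, had 42.9, 53 and 60.1 CPM in DMSO and 54.6, 61.3 and 64.5 CPM. Its groups overlapped, and the log2 fold change was 0.21 ± 0.08, adjusted p = 0.0488. CFL1 overlaps 13.9% of MUS81 exonic bases on the opposite strand and had 18110 to 49545 counts. RBBP8 had 51.8, 58.3 and 61.2 CPM in DMSO and 62, 63.4 and 65.5 CPM. All treated libraries lay above DMSO, at 0.14 ± 0.05, adjusted p = 0.0221, but the log2 fold change was 0.21 in Rep 1 and 0.06 in Rep 2. With Rep as a block 13 genes passed at this dose, 4 higher and 9 lower (30.1% of all genes tested), and on the summed libraries 0 of the 45 passed without the block (1.47%) and 9 with it (18.8%). Without Rep 1, 4 passed, with the share of all genes not counted.

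The degrader and the inhibitor were compared directly at both doses, which is 2 pairs of groups with no DMSO library involved. At 1500 nM, 24 of the 45 genes were higher with SGI-1776-VHL-02 than with SGI-1776 and the other 21 did not pass, beside 14.4% higher and 10.7% lower of all genes tested. At 3750 nM, 25 were higher and 1, ATM, was lower, beside 17.6% higher and 13.5% lower. The median log2 difference of the 45 genes was 0.18 at 1500 nM and 0.19 at 3750 nM, beside -0.01 and 0.00 for all genes tested. The p-values of each comparison were adjusted over all genes tested.

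At 3750 nM, EME1 differed most. It had a lowest, median and highest level of 11.6, 13.8 and 17.7 CPM with SGI-1776 and of 17.5, 19 and 21.3 CPM with SGI-1776-VHL-02. The groups overlapped at the edge, and the log2 difference was 0.45 (95% interval 0.23 to 0.67), adjusted p = 0.0014. LRRC59, with 11896 to 34319 counts, overlaps 16.4% of EME1 exonic bases on the opposite strand. FANCF had 6.8, 7.54 and 9.02 CPM with SGI-1776, against the 8.44 to 11.7 CPM given above. Its log2 difference was 0.43 (0.26 to 0.59), adjusted p = 9.87e-05. RAD54L had 27.5, 32.4 and 36.8 CPM with SGI-1776-VHL-02, all above its SGI-1776 libraries, and a log2 difference of 0.42 (0.24 to 0.60), adjusted p = 0.000355. XRCC2 had 42, 43.5 and 48.3 CPM with SGI-1776-VHL-02, again with no overlap, and a log2 difference of 0.37 (0.21 to 0.53), adjusted p = 0.00038.

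ATM was the only 1 of the 45 genes that was lower with SGI-1776-VHL-02. Its lowest, median and highest level was 51.7, 57.3 and 67.1 CPM with SGI-1776-VHL-02 at 3750 nM, in the lower part of the SGI-1776 range and overlapping it. The log2 difference was -0.23 (-0.40 to -0.06), adjusted p = 0.0374, and it was -0.36 in Rep 1 and -0.11 in Rep 2. At 1500 nM ATM had 56.9, 61 and 76.1 CPM with SGI-1776-VHL-02 and did not pass.

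At 1500 nM, BRCA2 and PRKDC differed most between the compounds. BRCA2 had a lowest, median and highest level of 9.75, 10.7 and 13.3 CPM with SGI-1776 and of 12.4, 14.8 and 18.6 CPM with SGI-1776-VHL-02. The groups overlapped, and the log2 difference was 0.43 (0.22 to 0.63), adjusted p = 0.00177. PRKDC had 303, 322 and 380 CPM with SGI-1776 and 371, 427 and 490 CPM with SGI-1776-VHL-02. These groups overlapped slightly, and the log2 difference was 0.36 (0.15 to 0.57), adjusted p = 0.00884. SGI-1776-VHL-02 at 1500 nM held 2 libraries under 0.5% mitochondrial counts, and SGI-1776 at 1500 nM held 0. In those 2 libraries PRKDC stood at 487.2 and 459.6 CPM and BRCA2 at 18.6 and 15.05 CPM. PRKDC also stood at 489.8 CPM in the Rep 1 library of that degrader group with the lowest mitochondrial share of its Rep, 2%. The other Rep 1 libraries of the group had 371.3 and 393.5 CPM, at 2.94 and 3.18%. In most sets of a group and Rep, PRKDC was highest where the mitochondrial share was lowest. The exception was Rep 1 of the degrader at 3750 nM, with 352.4 CPM at 2.89%, the highest share there. The part of the mitochondrial share in the differences between the compounds was not tested. At 3750 nM the log2 difference of PRKDC was 0.09 (-0.11 to 0.30) and that of BRCA2 was 0.24 (0.03 to 0.45), and neither passed.

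The genes higher with SGI-1776-VHL-02 at both doses numbered 17, which is 70.8% of the 24 at 1500 nM and 68% of the 25 at 3750 nM, and 10.3% of all genes tested met the same rule. They were BRCA1, RAD51C, XRCC2, RAD54L, RAD54B, UBE2T, FANCD2, FANCI, BRIP1, RBBP8, EXO1, BLM, RMI1, TOPBP1, CHEK1, PARP1 and POLQ. All 3 genes of the FANCD2-FANCI complex and BRIP1 were among them, as were 5 of the 11 genes of the BRCA complexes and recombination mediators. BARD1, RAD51AP1, BRCA2, PRKDC, XRCC5, XRCC6 and XRCC1 passed at 1500 nM and not at 3750 nM, and PMS2, FANCC, FANCE, PALB2, MUS81, RMI2, FANCF and EME1 passed at 3750 nM and not at 1500 nM. The tests of compound by dose given below bear on those differences. For ATR the log2 difference was 0.01 (-0.09 to 0.11) at 1500 nM and 0.00 (-0.10 to 0.10) at 3750 nM, and for FANCL it was 0.06 (-0.03 to 0.15) and 0.04 (-0.06 to 0.13).

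All 6 SGI-1776-VHL-02 libraries lay above all 6 SGI-1776 libraries for 11 of the 45 genes at 1500 nM and 13 at 3750 nM, beside 6.86% and 9.79% of all genes tested. On the summed libraries 0 of the 45 passed at 1500 nM and 5 at 3750 nM, namely UBE2T, BLM, BRCA1, EXO1 and POLQ, beside 0.745% and 5.91% of all genes. With Rep as a block on the same sums 29 of the 45 passed at each dose, beside 23.9% and 27.6% of all genes.

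**Figure D4:**
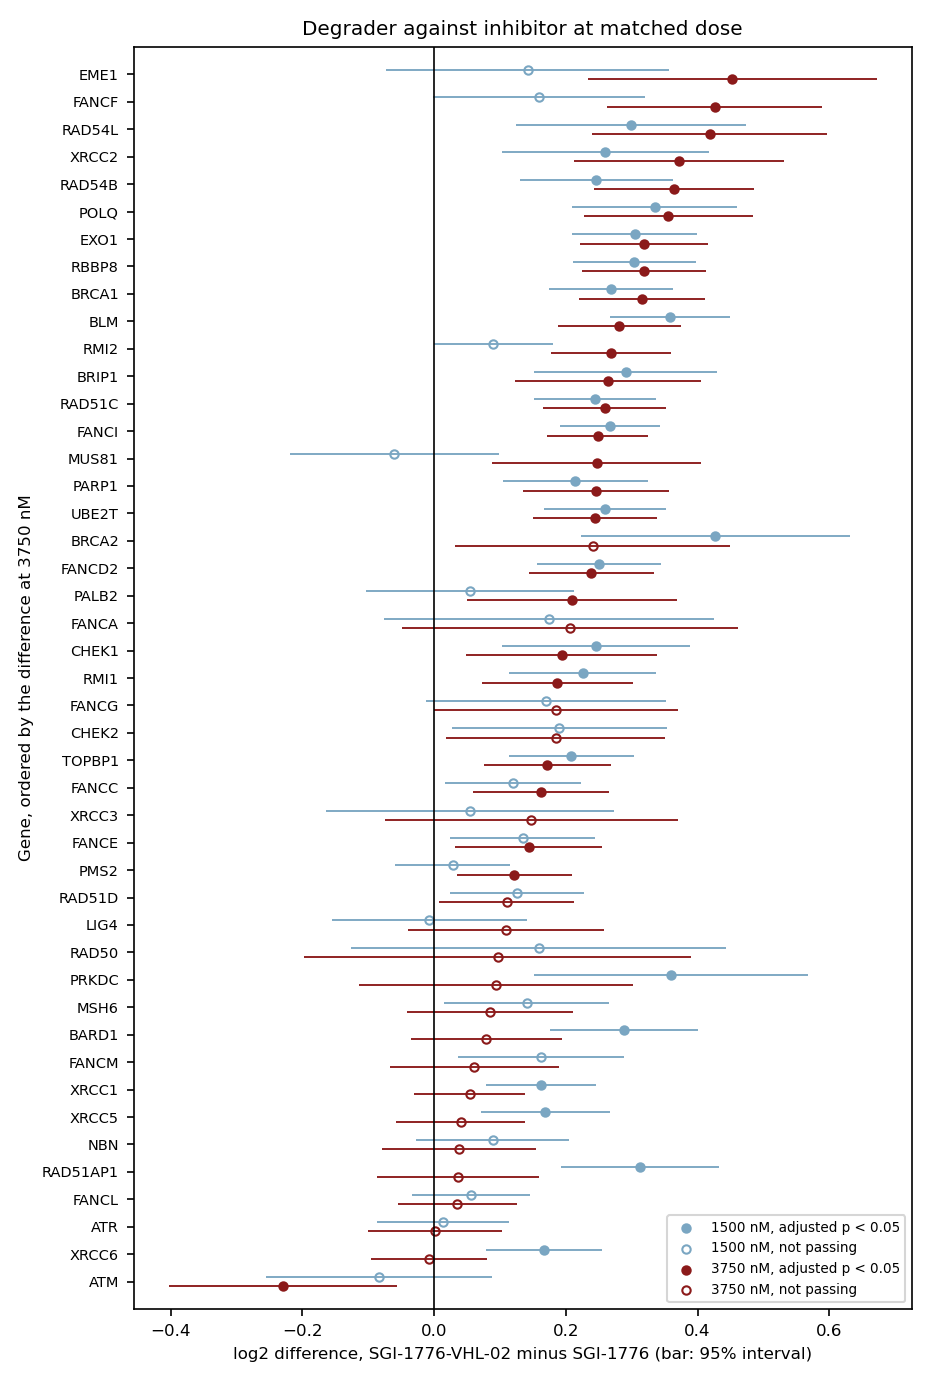
Log2 difference of SGI-1776-VHL-02 minus SGI-1776 for each of the 45 genes at 1500 nM (light blue) and 3750 nM (dark red), with 95% intervals as bars and filled points for adjusted p under 0.05, ordered by the value at 3750 nM. Nearly all points lie above 0, EME1, FANCF and RAD54L are at the top and ATM is at the bottom.

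Part of the 45 genes fell from the lower to the higher dose of each compound. With SGI-1776, 10 of the 45 genes fell from 1500 to 3750 nM and the others did not pass, beside 4.69% lower and 4.46% higher of all genes tested. RAD54B fell most, by 0.35 ± 0.06 on the log2 scale (adjusted p = 0.000194) and with no overlap. With SGI-1776-VHL-02, 16 fell and MUS81 rose, beside 9.74% lower and 9.23% higher. Fallen genes shared by both dose steps numbered 9, which is 90% of the 10 and 56.2% of the 16, and 3.17% of all genes tested fell in both. They were BRCA1, RAD54B, UBE2T, FANCD2, FANCI, EXO1, BLM, TOPBP1 and POLQ. The SGI-1776-VHL-02 step was largest for PRKDC, which went from 371 to 490 CPM at 1500 nM to a lowest, median and highest level of 262, 338 and 366 CPM at 3750 nM. Its groups did not overlap, and the log2 difference was -0.39 ± 0.10, adjusted p = 0.00562. SGI-1776-VHL-02 held 2 libraries under 0.5% mitochondrial counts at 1500 nM and 0 at 3750 nM, and the part of this in the PRKDC step was not tested. RAD51AP1 fell by 0.37 ± 0.06, adjusted p = 2.16e-05, from 20.2 to 25.4 CPM to the 16.1 to 20.2 CPM given above. For SGI-1776, 16 passed with Rep as a block (17.3% of all genes tested) and on the summed libraries 0 without the block (0%) and 14 with it (7.58%). For SGI-1776-VHL-02, 1 gene, PRKDC, passed on the summed libraries without the block (0.493%) and 20 with it (18.3%). Without Rep 2, 5 passed for SGI-1776, with the share of all genes not counted.

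Whether the compound difference depended on dose was tested by an interaction. The interaction subtracts the log2 difference between the compounds at the lower dose from that at the higher dose. It passed for 0 of the 45 in edgeR's quasi-likelihood test and for 0 in DESeq2, beside 1.66% higher and 1.02% lower of all genes tested. At an unadjusted p under 0.05, 4 genes were positive and 3 negative, beside 6.11% and 5.79% of all genes tested. With Rep as a block 6 passed (6.21% of all genes tested), of which RAD51AP1, BARD1, XRCC6 and XRCC5 were negative and MUS81 and EME1 positive. In the fit without the block, RAD51AP1 stood at -0.28 ± 0.08 (adjusted p = 0.0789) and MUS81 at 0.31 ± 0.11 (adjusted p = 0.168).

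A set of 7 genes, FANCL, NBN, RAD50, ATR, CHEK2, MSH6 and LIG4, passed in none of the 9 comparisons by edgeR's quasi-likelihood test. RAD50, NBN and LIG4 had the highest p in the test over the 5 groups. RAD50 group medians ran from 1.68 to 1.97 CPM, with single libraries from 1.22 to 2.5 CPM. NBN had a lowest and highest library of 104 and 127 CPM in DMSO and of 97.5 and 120 CPM with SGI-1776 at 3750 nM. LIG4 had 13.3, 15.8 and 18.3 CPM in DMSO and 13.2, 14.5 and 15.5 CPM with SGI-1776 at 3750 nM. All of these ranges overlapped. Against DMSO at 3750 nM SGI-1776, the 95% intervals of the log2 fold change were -0.28 to 0.31 for RAD50, -0.16 to 0.07 for NBN and -0.25 to 0.05 for LIG4.

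Other DNA repair genes, 101 tested of 104 found, were read from the same fit. With SGI-1776 at 3750 nM, 44 of them fell and 4 rose, beside 18.4% lower and 17.2% higher of all genes tested, with a median log2 fold change of -0.11. CLSPN, the mediator of CHEK1 activation, fell by 0.52 ± 0.06, FANCB, a Fanconi core subunit, by 0.47 ± 0.08, and NEIL3, a glycosylase that unhooks crosslinks, by 0.46 ± 0.05. By pathway, 8 of 13 other Fanconi and crosslink genes, 10 of 18 base excision genes, 7 of 14 checkpoint genes and 5 of 15 nucleotide excision genes fell. So did 5 of 12 other homologous recombination genes, 4 of 9 translesion genes, 3 of 12 end joining genes, 1 of 5 mismatch repair genes and 1 of 3 direct reversal genes. With SGI-1776-VHL-02 at 3750 nM, 10 of the 101 fell and 6 rose (9.9% and 5.94%), beside 10.3% lower and 11.5% higher of all genes tested. Between the compounds at that dose 31 were higher with SGI-1776-VHL-02 and 2 lower, beside 17.6% and 13.5%.

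Lists of DNA replication and mitosis genes were set beside the repair genes. Of all genes tested, 18.4% fell with SGI-1776 at 3750 nM and 10.3% with SGI-1776-VHL-02 at 3750 nM. Of 30 replication genes, 30 fell with SGI-1776 at 3750 nM, with a median log2 fold change of -0.35, and 7 fell with SGI-1776-VHL-02 at 3750 nM, with a median of -0.11. CDC45, a subunit of the replicative helicase, fell by 0.56 ± 0.04 with SGI-1776. Of 30 mitosis genes, 29 fell with SGI-1776 at 3750 nM (median -0.46) and 29 with SGI-1776-VHL-02 at 3750 nM (median -0.32). CDC20, the activator of the anaphase-promoting complex, fell by 0.74 ± 0.04 with SGI-1776, and KIF20A, a kinesin of cytokinesis, by 0.56 ± 0.03 with SGI-1776-VHL-02. Among 12 genes of the E2F and RB families, 8 fell and 1 rose with SGI-1776 at 3750 nM, with E2F1 at -0.39 ± 0.04. At 3750 nM SGI-1776-VHL-02 the median of the 45 repair genes was -0.02, beside -0.11 for the replication list and -0.32 for the mitosis list. The part of cell cycle state in the levels of the repair genes was not tested.

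**Figure D5:**
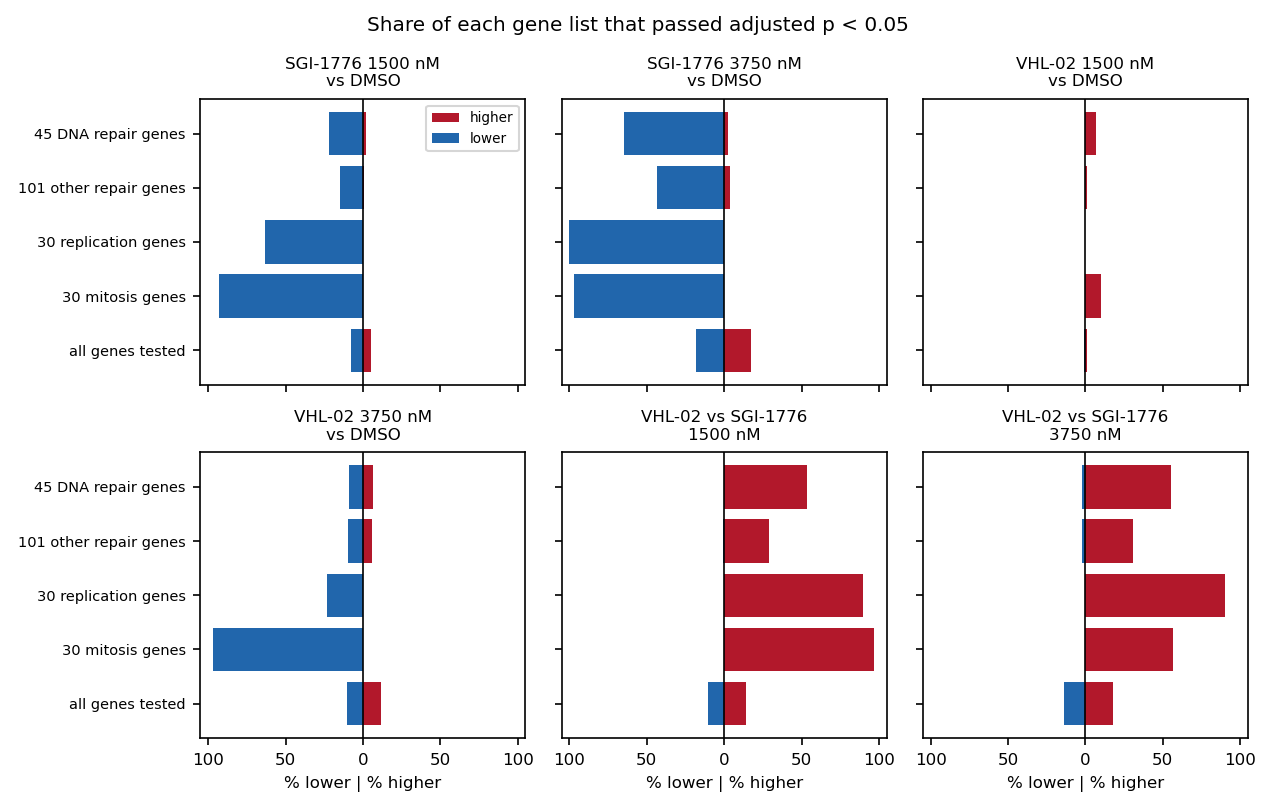
Share of each gene list that passed adjusted p under 0.05, with lower genes to the left in blue and higher genes to the right in red, for the 4 treatments against DMSO and the 2 compound comparisons (VHL-02 is SGI-1776-VHL-02). At 3750 nM of SGI-1776-VHL-02 the mitosis list has 29 of 30 genes lower, while the 45 DNA repair genes have 4 lower and 3 higher.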

How the data were processed

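The authors deposited raw counts per gene for 30 libraries, made with featureCounts 1.5.0-p3 on GRCh38 (hg38) per the submitters' processing notes; the aligner and the strand setting are not given in the sources used here. Libraries were grouped by their labels. Unless a Rep is named, overlap of groups was read over both Reps together. Groups said to overlap can therefore be separate within each Rep. Genes were kept with edgeR's filterByExpr (17499), scaled by TMM and fitted in edgeR 4.0.16 (R 4.3.3) by the quasi-likelihood method with the 5 groups over all 30 libraries. Tests were two-sided with Benjamini-Hochberg adjustment over all genes tested and a threshold of 0.05; 95% intervals come from the same fit. CPM is TMM-scaled, and RPKM divides it by the deposited gene length. Alternatives were Rep as a block, libraries summed per Rep, DESeq2 1.42.0, voom with correlated Rep sets in limma 3.58.1, other scalings, no filter, only the groups compared, and leaving out Reps or libraries low in mitochondrial counts. The Rep 2 minus Rep 1 difference correlated between any 2 groups (10 pairs, r of 0.507 to 0.672 over genes, which are not independent replicates), so Rep numbers paired the samples; the labels do not say what a Rep is. The pipeline was tested on simulated data. The 45 genes and the comparison lists were chosen with earlier results of these data known. Full levels are given for the genes with the largest called changes, 4 per direction at 3750 nM and 2 at 1500 nM, and for the 3 with the highest joint p; FANCI, EXO1, BRCA1 and RAD51C were added after their values were seen. Counts of reads are not independent molecules, and standard errors are those of the fit. Shared exons were read from GENCODE 29, in which all 58735 gene identifiers were found. A few genes are not reported here.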

Additional observations from a re-analysis of the deposited data

Results flagged for a closer look

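Among the 225 pairs of a repair gene and a group, 5 held a library far from the other 5 of its group, by the gap to its nearest neighbour relative to the range of the group. Chance alone gives about 1 in 20 groups, so 5 of 225 is fewer than chance alone would give. PALB2 stood at 16.6 CPM in library 3 of Rep 2 of DMSO, where the other 5 libraries had 13 to 14.1 CPM. PALB2 also stood at 15.5 CPM in library 2 of Rep 1 of SGI-1776-VHL-02 at 1500 nM, where the others had 13.5 to 14.1 CPM. ATR stood at 27.4 CPM in library 3 of Rep 2 of SGI-1776 at 3750 nM, below the others at 30.8 to 32.5 CPM. ATR stood at 33.7 CPM in library 2 of Rep 2 of SGI-1776-VHL-02 at 3750 nM, above the others at 30.1 to 31.4 CPM. FANCD2 stood at 62 CPM in library 1 of Rep 1 of SGI-1776 at 1500 nM, above the others at 55.9 to 57.7 CPM, and passed as lower than DMSO there with this library included.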

How the results depend on the processing

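Counts of the 45 genes that passed depended on how the libraries were treated, and no named result changed direction in any alternative. With Rep as a replicate block the counts rose for SGI-1776 1500 nM (11 to 20), SGI-1776-VHL-02 1500 nM (3 to 13) and 3750 nM (7 to 13), the SGI-1776 dose step (10 to 16) and the interaction (0 to 6). This paired fit kept 24 of 24 named results and ended no call among them. With the 3 libraries of each Rep summed, which leaves fewer samples, counts were 0 for both 1500 nM treatments, for SGI-1776-VHL-02 3750 nM, for the compounds at 1500 nM and for the SGI-1776 dose step, 8 for SGI-1776 3750 nM, 5 for the compounds at 3750 nM and 1 for the SGI-1776-VHL-02 dose step, and 2 of 24 named results passed. Summed with the block, counts were 8 and 31 for SGI-1776 1500 and 3750 nM, 7 and 9 for SGI-1776-VHL-02 1500 and 3750 nM, 29 for the compounds at each dose, 14 and 20 for the dose steps and 2 for the interaction, and 21 named results passed. With voom the counts were 0, 19, 0 and 2 for the 4 treatments in the order SGI-1776 1500 and 3750 nM and SGI-1776-VHL-02 1500 and 3750 nM, 17 for the compounds at 3750 nM, 0 and 9 for the dose steps, and 9 named results passed. For SGI-1776 1500 nM, scaling by library size alone gave 3, no filter 1, and a fit of the compared groups only 4; that fit gave 6 for the SGI-1776 dose step. DESeq2 gave 7 for SGI-1776-VHL-02 1500 nM. Without the 4 libraries low in mitochondrial counts the interaction had 1. Leaving out a Rep gave 3 to 8 for SGI-1776 1500 nM, 0 to 4 and 4 to 6 for SGI-1776-VHL-02 1500 and 3750 nM, 5 to 8 for the SGI-1776 dose step and 0 to 1 for the interaction. The cause of these differences was not tested. The share of all genes was not counted for voom, DESeq2, other scalings, no filter, the compared groups only or left-out Reps or libraries. For those settings, whether a change in the count is particular to the 45 genes is not known. RAD50 (30 to 113 counts) and RAD54B (130 to 391) have the lowest counts, where depth limits precision most.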

Other observations

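Other repair genes share exons in the same way as RAD50. NHEJ1 (XLF), an end joining factor, had 0 to 20 counts, with 65.4% shared with AC068946.1 (4 to 37 counts). SLX1A, a nuclease subunit, had 0 to 1 counts, with 86% shared with SLX1A-SULT1A3 (0 to 5 counts). The part of shared exons in these low counts was not tested.

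Among the 101 other repair genes, ERCC5, a nuclease of nucleotide excision, rose with SGI-1776 at 1500 nM by 0.31 ± 0.08 on the log2 scale, adjusted p = 0.0102. It was lower with SGI-1776-VHL-02 than with SGI-1776 at 1500 nM, at -0.37 ± 0.08 (adjusted p = 0.000915). ERCC5 had 79 to 167 counts per library, and 63.2% of its exonic bases are shared on the same strand with BIVM-ERCC5, which had 0 counts. HLTF, a translesion factor, fell by 0.35 ± 0.07 with SGI-1776-VHL-02 at 3750 nM (adjusted p = 0.000174).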
